A study of Drosophila melanogaster with 24 samples.

Results

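Segmentation of the Drosophila embryo runs through a cascade in which maternal factors switch on the gap genes, the gap genes position the stripes of the pair-rule genes, and the pair-rule genes set the narrower stripes of the segment polarity genes. Most gap and pair-rule genes are transcribed only after fertilisation, and they are classic cases of genes with many separate enhancers spread over the surrounding DNA. The gene hb is also transcribed in the female germline, which loads its RNA into the egg, and en and wg act in the somatic cells of the germarium, the tip of the ovary where the stem cells lie.

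The 10 genes described here were taken by name out of 13922 protein-coding genes on the main chromosome arms. They comprise 4 gap genes (hb, Kr, kni and gt), 4 pair-rule genes (eve, ftz, h and run) and 2 genes, en and wg, that are segment polarity genes rather than gap or pair-rule genes. All 10 were found in the annotation table, h under the symbol hry. Their lengths ran from 1477 bp at eve to 9107 bp at wg.

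Stwl, encoded by stonewall and labelled as a transcription factor, was mapped by CUT&RUN, in which an antibody directs a nuclease to cut the DNA around its target. The lists used were Stwl in bam GKD ovaries, Stwl in WT ovaries and BEAF, a boundary element protein, in WT ovaries. In bam GKD the gene bam is knocked down, and WT is wild type. For Stwl, the labels assign the bam GKD ovaries to undifferentiated stages and the WT ovaries to differentiated stages. The labels name the tissue as whole ovary, with no age, driver line or somatic and germline separation, so the cell type behind an interval cannot be told, and the lists hold no expression values against which the tissue could be checked. Each of the 3 groups had 1 list of intervals without scores or read counts, so no value below has a replicate error, read depth is unknown and no difference was tested.

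On the main arms the lists held 12857 intervals for Stwl in bam GKD, 8576 for Stwl in WT and 5083 for BEAF in WT, covering 21.5 Mb, 11.7 Mb and 1.94 Mb. A gene was called when an interval came within 500 bp of either of its annotated ends. Because the annotation table gives no strand, an end is named here by its coordinate, low or high, and not as a start or a terminus of transcription. Wide intervals lay over the chorion genes, which encode eggshell proteins and are amplified in follicle cells of late egg chambers, in both Stwl lists. Those over the cluster on 3L were 81541 bp wide in bam GKD and 72696 bp in WT, although the labels place bam GKD at undifferentiated stages. The gene h lies beside that cluster, and its calls and covered shares are therefore also given without those intervals.

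Stwl was called at a smaller share of the segmentation genes than of all protein-coding genes. In bam GKD 3 of the 10 were called, namely hb, Kr and h, against 61.4% of all protein-coding genes. In WT 4 of the 10 were called, the same 3 and en, against 55.7%. BEAF was called at 0 of the 10, against 28.1%, so that no gene had both Stwl in WT and BEAF, against 26.4%. Calls in both Stwl lists were made at 3 of the 10, against 49.6% of all genes. A call in bam GKD only was made at 0 of the 10, against 11.8%, and a call in WT only at 1, en, against 6.18%. The other 6 genes, kni, gt, eve, ftz, run and wg, had no interval at an end in either Stwl list, against 32.4% of all genes, or in any of the 3 lists, against 31.3%. No interval lay inside any of these 6, so the gene bodies gave the same 3 and 4 genes as the ends. Intervals inside a gene were found at 48.3% of all genes for Stwl in bam GKD, 45.7% for Stwl in WT and 22.9% for BEAF.

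These shares stand beside the isolation of the segmentation genes. Of the 10, 8 had no other protein-coding gene within 5 kb, as had 631 of all 13922 genes. Their median distance to the nearest other protein-coding gene was 13959 bp, against 59 bp over all genes, and a median of 5 protein-coding genes lay within 50 kb of them, against 17. Among the 631 isolated genes the calls were made at 38.5% for Stwl in bam GKD, 22.2% for Stwl in WT and 4.75% for BEAF. Of the 8 isolated segmentation genes, which leave out Kr and gt, 2 were called in bam GKD (hb and h), 3 in WT (hb, h and en) and 0 for BEAF. With only 8 genes these counts are too few to give a direction against the isolated background, and no difference was tested. The WT count included en, whose interval of 176 bp had the narrowest width in that list. A background of the 7131 genes within the length range of the 10 moved the other way, to 65.0%, 63.1% and 34.0%. The part of isolation in the calls was not tested. The background of isolated genes was added after the data had been seen.

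The gap gene hb (3R, 8690980 to 8697822) encodes a zinc finger protein that patterns the anterior of the embryo. In bam GKD it had intervals of 485 bp across the low end, of 1793 bp inside the gene and of 269 bp lying 379 bp beyond the high end. In WT it had an interval of 187 bp across the low end and one of 939 bp that stopped 44 bp short of the high end. The low end was thus occupied in both genotypes, and the narrow WT interval there lay wholly within the bam GKD one. Near the high end the internal intervals of bam GKD and WT shared only 190 bp, the bam GKD one stopping 793 bp short of the end. The bam GKD interval beyond the high end overlapped no WT interval. Stwl covered 31.2% of the gene in bam GKD and 14.9% in WT. No other protein-coding gene had its end at any of these intervals, the nearest, CG44227, being 5804 bp away.

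The gap gene Kr (2R, 25226611 to 25231394) encodes a zinc finger repressor of the central embryo and lies within the annotated span of CG9380. In bam GKD a single interval of 28000 bp began 2305 bp from its low end, covered the rest of the gene and ran 25521 bp past the high end. It was the 15th widest of the 12857 bam GKD intervals and also reached an end of CG9380, CG30429, Jhbp10 and CG30428. In WT an interval of 2263 bp covered the same high end and reached 121 bp beyond it. The low end of Kr had no interval within 500 bp in either genotype. The WT interval lay inside the bam GKD one, which overlapped 8 separate WT intervals in all. The 2 genotypes therefore shared the occupied end. They differed in how much of the DNA around it was covered, 68.4% within 50 kb in bam GKD and 16.4% in WT. Coverage within 50 kb was also higher in bam GKD around 75.4% of all genes, and the whole lists covered 21.5 Mb and 11.7 Mb. On the low side, bam GKD intervals of 6112 bp and 758 bp overlapped no WT interval.

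The pair-rule gene h (3L, 8675759 to 8679253), which encodes a basic helix-loop-helix repressor, had Stwl at both ends in both genotypes. In bam GKD the low end lay in an interval of 5771 bp and the high end in the interval of 81541 bp, the widest in that list, which ran across the chorion genes. In WT the low end lay in an interval of 1461 bp and the high end in one of 1228 bp. Both WT intervals lay wholly within the bam GKD ones. The 72696 bp WT interval over the chorion genes began 9449 bp beyond the high end, and another of 5185 bp lay between. The nearest chorion gene, Cp18, lay 47538 bp from h. Without the intervals over chorion genes h kept its call in both genotypes, through the low end in bam GKD and both ends in WT. How far amplified chorion DNA contributes to the intervals around h was not tested.

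The segment polarity gene en (2R, 11524006 to 11528210), which encodes a homeodomain repressor, was the only one of the 10 called in 1 genotype. In WT its high end lay in an interval of 176 bp, of which 132 bp fell inside the gene. That is the narrowest width in the WT list, where 356 of 8576 intervals were no wider. In bam GKD the nearest interval, of 283 bp, lay 15658 bp away, inside the paralogous gene inv. Only 6.46% of genes had their nearest bam GKD interval farther from an end. With the wider 50% of each list, or equal numbers of the widest intervals, en lost its WT call. Under both settings hb lost its bam GKD call and became the gene called in WT only. The bam GKD interval of 1793 bp inside hb was wide enough to stay under both. It gave no call because it stopped 793 bp short of the high end.

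**Figure D1:**
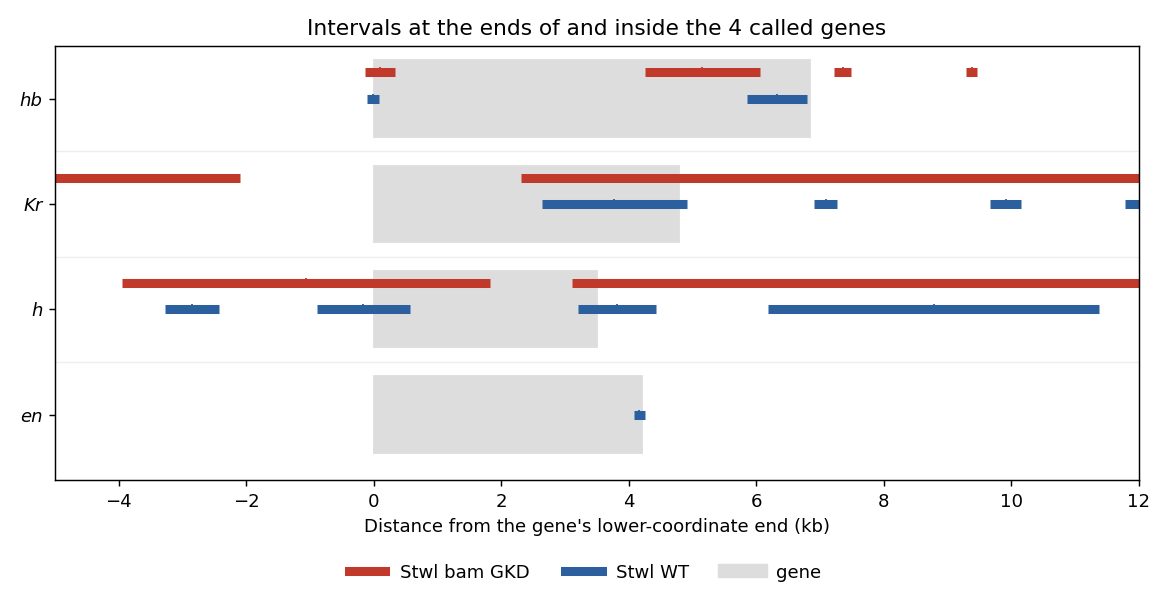
Stwl intervals at hb, Kr, h and en, by distance in kb from the lower-coordinate end of each gene (grey box), with the bam GKD list above the WT list. Intervals running past the edge are cut there; hb and h are occupied at or near both ends, Kr at its high end, and en by a 176 bp interval in WT alone.

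Of the intervals at an end of or inside these genes, 6 were in the bam GKD list and 6 in the WT list. In each direction 5 of the 6 overlapped an interval of the other genotype by at least 1 bp, and 4 did so by 50% of the shorter interval. The exceptions with no overlap were the bam GKD interval beyond hb and the WT interval at en. In the whole lists, an overlap of at least 1 bp was found for 52.1% of bam GKD and 85.1% of WT intervals. No whole-list share is given for the 50% overlap. Wide bam GKD intervals, such as those of 28000 bp at Kr and 81541 bp at h, overlap another list more readily. None of the 6 WT intervals reached an end of another protein-coding gene, while 2 of the 6 in bam GKD did, those at Kr and h. Over the whole lists, 34.2% of bam GKD and 27.7% of WT intervals at gene ends reached an end of 1 gene only. Those shares leave out intervals that reach no gene end, such as the bam GKD one of 1793 bp inside hb, so the 2 counts are not on the same base.

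Among the genes without a call, kni (3L, 20692330 to 20695378), which encodes a gap repressor of the nuclear receptor family, had its nearest Stwl interval 3258 bp away in bam GKD and 16342 bp away in WT. The bam GKD interval was 236 bp wide and matched no WT interval. For gt (X, 2427113 to 2428967), a gap gene encoding a basic leucine zipper repressor, these distances were 911 bp in bam GKD and 7162 bp in WT. The bam GKD interval beside gt, of 302 bp, lay at an end of its neighbour CG32797, which is 1258 bp from gt. A window of 1000 bp called gt in bam GKD and not in WT, and none of the other 5, giving 4 of the 10 in each genotype, against 65.6% and 59.4% of all genes.

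The pair-rule gene eve (2R, 9979319 to 9980795), which encodes a homeodomain repressor and has stripe enhancers on both sides, had its nearest Stwl interval 7983 bp away in bam GKD and 6140 bp away in WT. Both lay at an end of CG12134, the nearest protein-coding gene, at 6539 bp, and no interval of any list fell between there and the interval at TER94 on the other side. The gene ftz (3R, 6864324 to 6866244), a homeodomain gene within the Antennapedia complex, had an interval on its low side in both genotypes, 675 bp wide and 5559 bp away in bam GKD and 426 bp wide and 5691 bp away in WT. The WT interval lay within the bam GKD one, and neither reached an end of a protein-coding gene. For ftz and eve the distances in the genotypes were thus close.

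The X-linked run (20690670 to 20697321), which encodes a Runt domain transcription factor, had its nearest Stwl interval 19977 bp away in bam GKD, beside hydra, and 32529 bp away in WT, beside Cyp6v1. Only 4.96% of genes in bam GKD and 6.11% in WT had the nearest interval farther from an end. The gene wg (2L, 7307159 to 7316265), which encodes the Wnt ligand Wingless, had distances of 13538 bp in bam GKD and 25308 bp in WT. Of the 6 genes called in neither genotype, 5 lay nearer to an interval in bam GKD, eve being the exception. The same held for 64.2% of the 4515 genes called in neither genotype.

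BEAF stood far from most of the genes. Its nearest interval lay 8203 bp from eve, 13861 bp from hb, 14271 bp from gt and 20127 bp from h. It lay more than 50 kb from the other 6, from 58435 bp at kni to 214651 bp at Kr. The median over the 10 genes was 60931.5 bp, against 6265 bp from an end over all genes. No such median is given for the isolated genes, of which 4.75% had a BEAF call. At eve the nearest BEAF interval was at an end of TER94, and at gt it was at an end of tko. At hb it was at ends of Unc50, CG8043 and CG11755. At h all 18 BEAF intervals within 50 kb lay on the side of the chorion cluster, and the last reached the ends of Cp18, Cp15, Cp19, Cp16 and Prm.

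**Figure D2:**
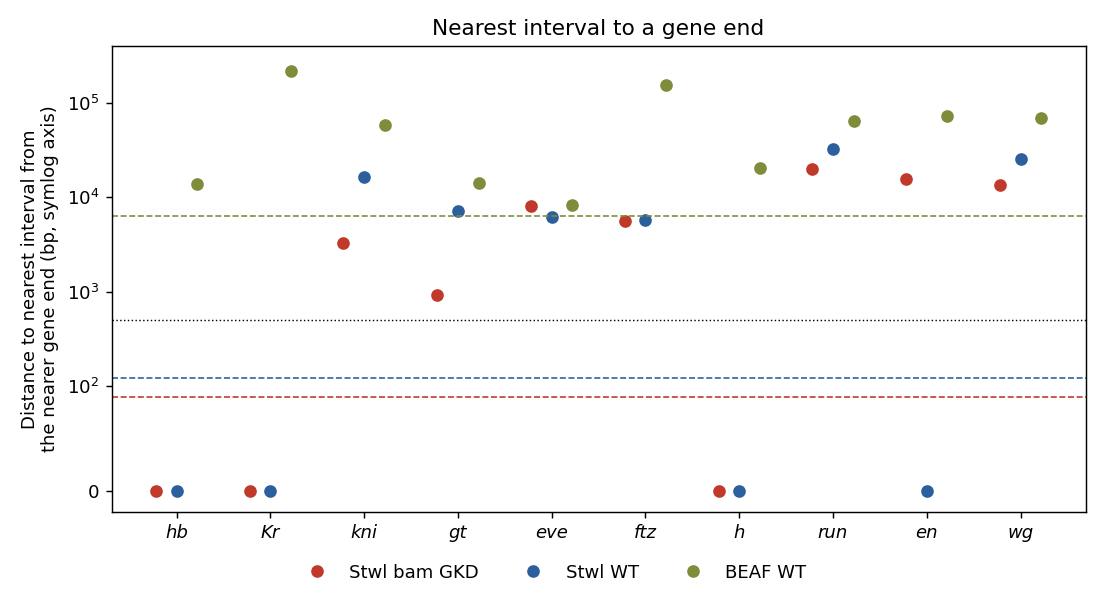
Distance in bp from the nearer end of each gene to the nearest interval, on an axis linear below 100 bp and logarithmic above it. Dashed lines are the medians over all protein-coding genes (89 bp for Stwl in bam GKD, 122 bp for Stwl in WT, 6265 bp for BEAF in WT) and the dotted line the 500 bp window; all 10 genes lie above the BEAF median.

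Within 50 kb of either side the 10 genes had 86 Stwl intervals in bam GKD, 73 in WT and 39 BEAF intervals. The median per gene was 8 in bam GKD, 4 in WT and 0 for BEAF, against 12, 9 and 4 over all genes. Counts of intervals are not a measure of occupied DNA, since neighbouring stretches can be joined. Around Kr, bam GKD had 5 intervals covering 68.4% of the bases and WT had 17 covering 16.4%. Only 0.797% of genes had a more covered neighbourhood than Kr in bam GKD.

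The covered share separated the neighbourhoods widely. For Stwl in bam GKD it was 68.4% at Kr, 61.0% at h, 17.4% at hb, 15.3% at eve, 15.0% at gt and 13.0% at kni. It was 6.01% at wg, 5.01% at ftz, 4.30% at run and 0.272% at en. The neighbourhood of en was among the least covered of all, with 1.95% of genes having no more. In WT the order was led by h at 48.9%, followed by Kr at 16.4%, eve at 15.8% and hb at 15.6%. The shares in WT were 5.15% at kni, 3.88% at gt, 2.02% at run, 1.29% at ftz, 0.387% at wg and 0.169% at en. Thus eve, whose own gene was free of Stwl, lay among neighbours about as covered as those of hb.

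The median covered share of the 10 neighbourhoods was 14.0% in bam GKD and 4.51% in WT, against 13.9% and 8.73% over all genes. In bam GKD 5 of the 10 and in WT 6 of the 10 lay below the median of all genes. The median of the 10 was thus close to that of all genes in bam GKD and lower in WT. Without h the medians were 13.0% in bam GKD and 3.88% in WT. Within 10 kb the medians were lower, 4.76% in bam GKD and 1.47% in WT, against 12.8% and 8.61%, with 6 and 7 of the 10 below the median of all genes. Coverage was higher in bam GKD than in WT around 9 of the 10, eve being the exception, as it was around 75.4% of all genes. For BEAF the share was 16.0% at h, 5.25% at eve, 1.59% at hb and 1.55% at gt and 0 at the other 6, with a median of 1.43% over all genes. Without the intervals over chorion genes the share at h was 9.29% for BEAF, 12.4% for Stwl in bam GKD and 9.76% for Stwl in WT. The BEAF share at h thus stayed the highest of the 10. The Stwl share in bam GKD fell below the median of all genes and that in WT stayed just above it. The filter dropped the whole wide Stwl interval in each genotype but kept 15 of the 18 BEAF intervals. Those 15 lay within the stretch that the dropped Stwl intervals had covered, so the BEAF and Stwl shares are not comparable here.

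**Figure D3:**
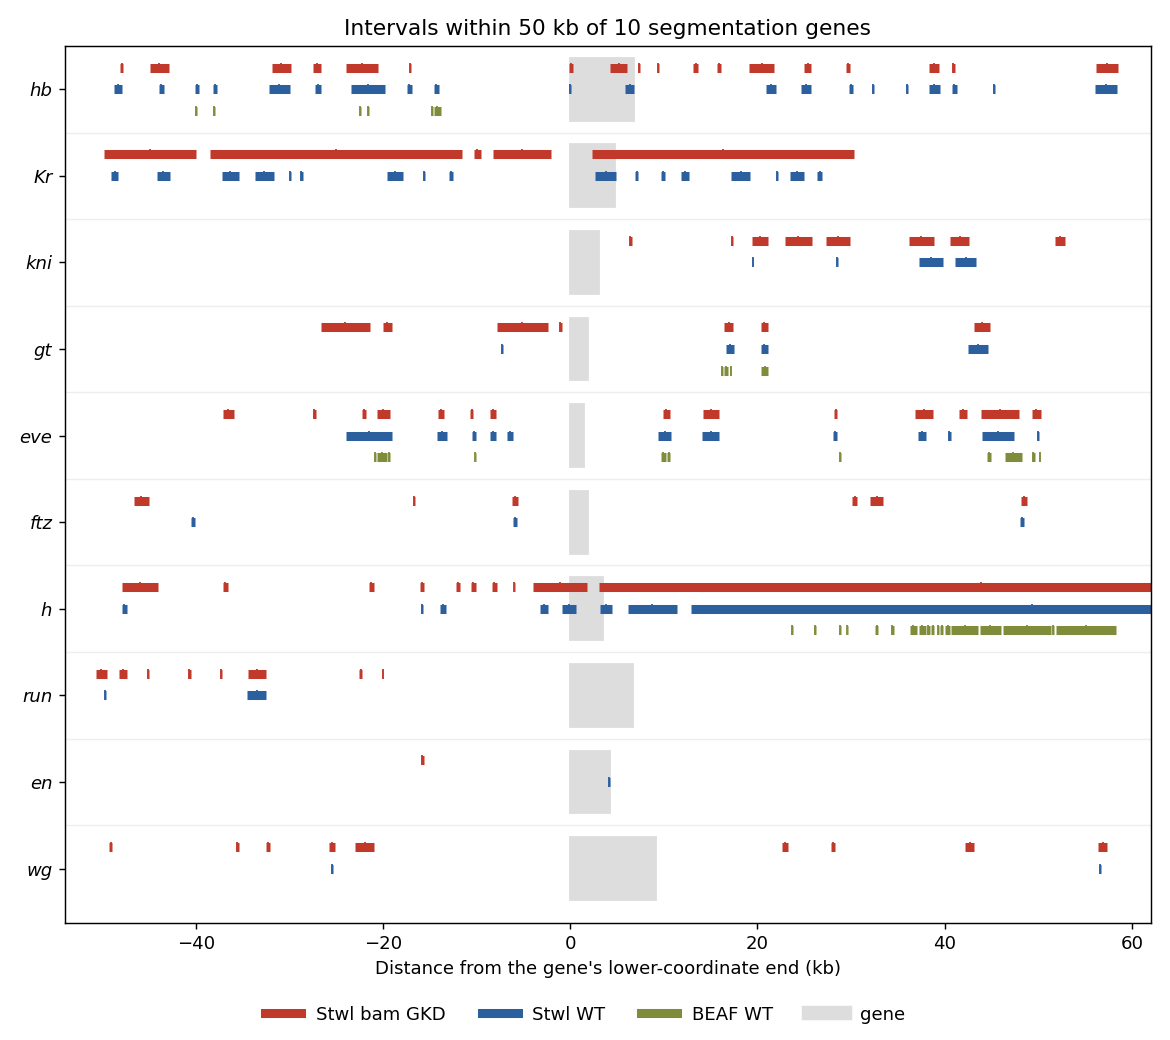
Intervals of the 3 lists within 50 kb of each gene, by distance in kb from its lower-coordinate end, with Stwl in bam GKD above Stwl in WT above BEAF in WT. Grey boxes are the genes and a thin tick marks the centre of each interval so that narrow ones can be seen; wide intervals are cut at the edges, and the boxes of kni, gt, eve, ftz, run and wg hold no interval.

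**Figure D4:**
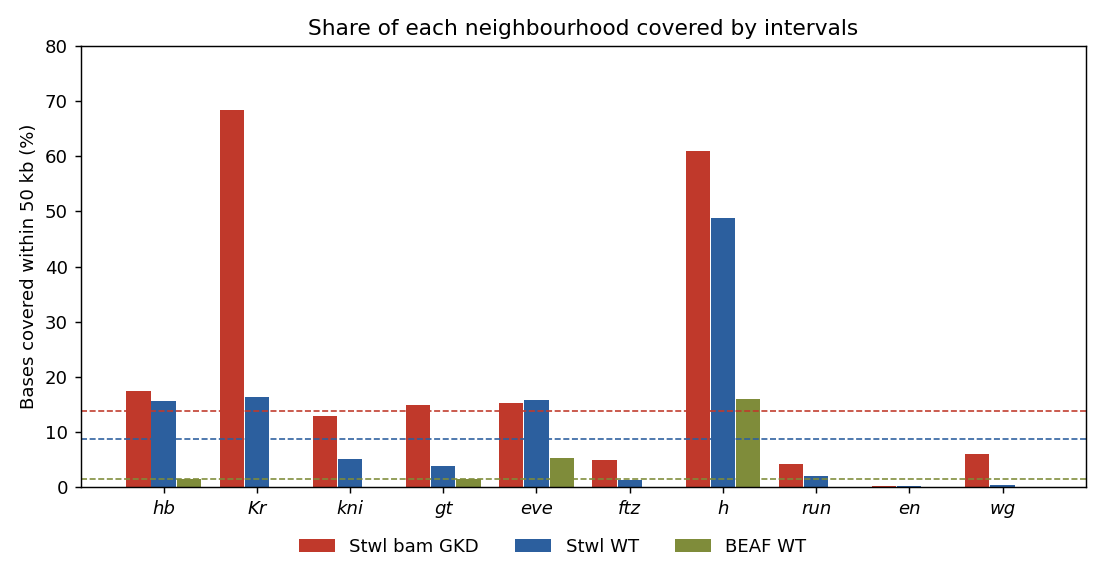
Share of bases within 50 kb of each gene covered by intervals, in percent, with 1 list per bar and no replicate error. Dashed lines are the medians over all protein-coding genes (13.9% for Stwl in bam GKD, 8.73% for Stwl in WT, 1.43% for BEAF in WT); Kr and h stand highest and en lowest for Stwl.

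The intervals around the 10 genes were set beside the whole lists. Of the 86 in bam GKD, 50.0% lay at an end of a protein-coding gene, against 47.8% of that list. Of the 73 in WT the share was 56.2%, against 61.2%. A WT partner, overlapping by at least 1 bp, was found for 53.5% of those in bam GKD, against 52.1% of the list. A bam GKD partner was found for 84.9% of those in WT, against 85.1%. Among single genes, 6 of the 8 bam GKD intervals around run and 7 of the 9 around wg had no WT partner. BEAF overlap was less frequent than in the lists. It touched 10.5% of the bam GKD and 17.8% of the WT intervals there, against 17.6% and 26.8% of the lists. All of these overlaps lay around hb, gt, eve and h, the only 4 of the 10 genes with a BEAF interval within 50 kb.

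Other genes of the cascade were called at varied rates, to be read against the shares over all genes of 61.4% for Stwl in bam GKD, 55.7% for Stwl in WT and 28.1% for BEAF. For calls in 1 Stwl list only, here and in the related lists below, the shares over all genes were 11.8% in bam GKD only and 6.18% in WT only. Of 8 further gap and head-gap genes and their paralogues, 5 were called in bam GKD and 3 in WT. The genes nub and btd had intervals of 2442 bp and 853 bp in bam GKD and 1630 bp and 662 bp in WT. Called in bam GKD only were oc, which patterns the head (1364 bp), and knrl, the paralogue of kni (543 bp). The WT interval nearest to knrl lay 1056 bp from its end. BEAF was called at 0 of the 8.

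Of 5 further pair-rule genes, prd, odd, opa, slp1 and slp2, 0 were called in bam GKD and 1 in WT, opa, by an interval of 201 bp lying 135 bp from its end. BEAF was called at 0 of them. With eve, ftz, h and run, the pair-rule genes were thus called at h in both genotypes and at opa in WT. For prd the nearest Stwl intervals lay 17624 bp away in bam GKD and 17578 bp in WT.

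Of 19 further genes of the segment polarity class, Hedgehog and Wnt signalling among them, 14 were called in bam GKD (73.7%), 15 in WT (78.9%) and 10 for BEAF (52.6%). The widest Stwl intervals there were at pan, on chromosome 4, whose product is the transcription factor of Wnt signalling, with 36201 bp in bam GKD and 58459 bp in WT. The receptor genes ptc and fz had intervals of 2804 bp and 2721 bp in bam GKD and 7376 bp and 2890 bp in WT, and the transcription factor gene ci, on the same chromosome, had 24321 bp in bam GKD and 24245 bp in WT. The paired-box gene gsb-n was called in bam GKD only (1949 bp). The genes por, needed for Wnt secretion, and Su(fu), an inhibitor of Hedgehog signalling, were called in WT only (204 bp and 698 bp). The ligand gene hh had no Stwl call, the nearest intervals being 1197 bp away in bam GKD and 1502 bp in WT, and had BEAF at an end. The gene inv, the paralogue of en, was called in none of the lists.

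Of 8 maternal axis genes, 7 were called in bam GKD (87.5%), 8 in WT and 3 for BEAF (37.5%). The widest in bam GKD were at pum, a translational repressor (4300 bp, and 3276 bp in WT), trk, of the terminal system (2246 bp, and 27463 bp in WT), osk, of the germ plasm (2117 bp, and 6322 bp in WT) and tsl (615 bp, and 183 bp in WT). The gene cad, a homeobox gene of the posterior, was called in WT only (231 bp), with the nearest bam GKD interval 1010 bp from its end. The anterior determinant gene bcd had intervals of 493 bp in bam GKD and 603 bp in WT. Of 7 early embryonic regulators 6 were called in each Stwl list (85.7%) and 5 for BEAF (71.4%). The widest in bam GKD were at da (9043 bp, and 10207 bp in WT), Trl, which encodes GAGA factor (7173 bp, and 7979 bp in WT), Stat92E (3294 bp, and 3704 bp in WT) and Clamp (3203 bp, and 3261 bp in WT). The gene zld, which encodes the activator of the zygotic genome, was called for BEAF and for neither Stwl list. Of 8 Hox genes, some of which neighbour ftz in the Antennapedia complex, 6 were called in bam GKD (75.0%), 4 in WT (50.0%) and 0 for BEAF. The widest in bam GKD were at pb (4126 bp, and 1713 bp in WT), abd-A (3891 bp, and 206 bp in WT), Ubx (3653 bp, and 1287 bp in WT) and lab (2504 bp, and 1686 bp in WT). Antp (1464 bp) and Abd-B (363 bp) were called in bam GKD only. These lists are small and differ in gene length and spacing, and no difference between them was tested.

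**Figure D5:**
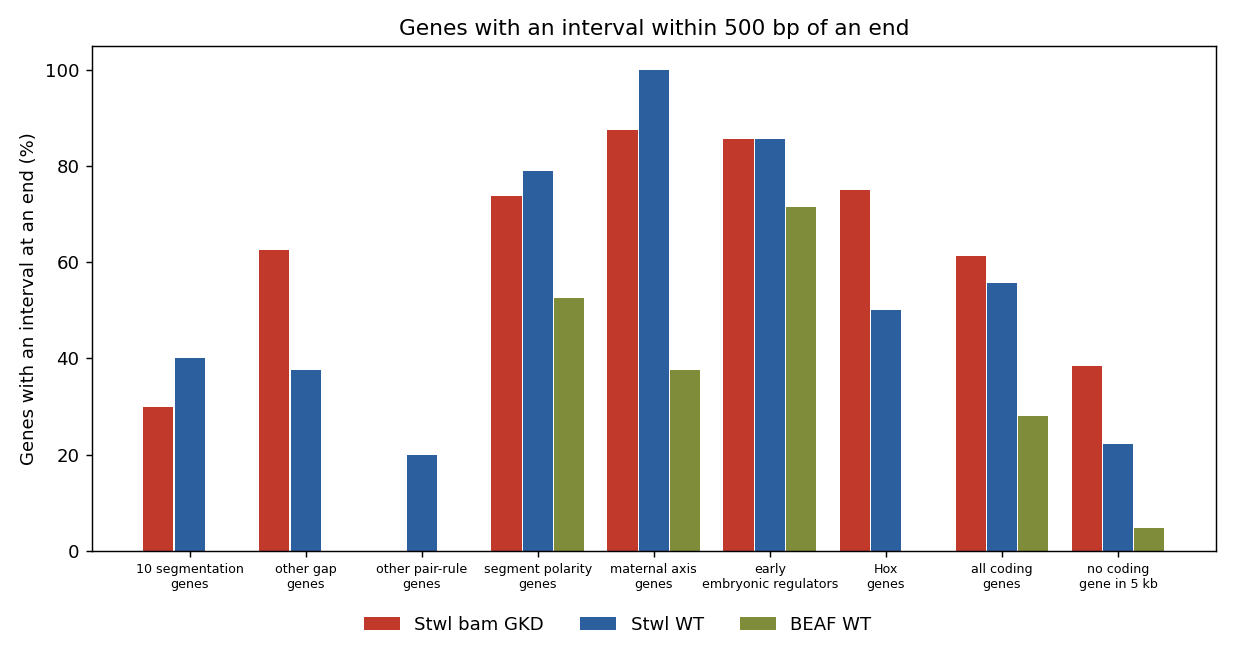
Percent of genes with an interval within 500 bp of an end, for the 10 segmentation genes, 6 lists of related genes, all protein-coding genes, and protein-coding genes with no other within 5 kb. Bars are 1 list each with no replicate error and a missing bar is 0; the 10 segmentation genes stand at 3 of 10 for Stwl in bam GKD, 4 of 10 for Stwl in WT and 0 for BEAF in WT.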

How the data were processed

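The values are interval bounds in bp on dm6, with no score, as the authors deposited them, per the file headers. The submitters' processing notes list MACS2 2.1.0, Bowtie2 2.2.8, deepTools 3.2.1, FastQC 0.11.8, SAMtools 1.9 and Trim Galore 0.6.6. Settings, control library, threshold and pooling of duplicates are not given in the sources used. A deeper library can yield more and wider intervals. Of the 24 samples, 21 were not analysed here.

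Coordinates are 1-based. Intervals off the main arms (31 of Stwl in bam GKD, 9 of Stwl in WT and 9 of BEAF) were left out. Genes came from RefSeq's table of the Release 6 assembly, which gives no strand or sequence, so the planned use of annotated starts and of promoter motifs was not run. The symbols h and nos were matched to hry and nanos. A call needed an interval within 500 bp of either gene end. The code was tested on simulated intervals. The genes and lists were chosen with earlier results of these data known. Named beyond the 10 genes were their nearest genes and those reached by their intervals, and of each related list up to 4 genes with the widest bam GKD interval and those called in 1 Stwl list only. The genes at the nearest intervals of uncalled genes, and hh, bcd, prd and zld, were named after their values were seen. Python 3.11.15, numpy 2.4.6 and pandas 2.3.3 were used.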

Additional observations from a re-analysis of the deposited data

How the results depend on the processing

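No paired analysis was possible because each group had 1 list. Windows of 250 bp, 1000 bp and 2000 bp, intervals inside the gene with or without the ends, the wider 50% of each list, equal numbers of the widest intervals and the lists without intervals over chorion genes (chosen after seeing the data) left 234 of 240 calls of single genes as they were. The 6 that changed were gt in bam GKD, gained with 1000 bp and 2000 bp, and hb in bam GKD and en in WT, lost with the wider 50% and with equal numbers. Many of the 240 could not have changed, so the 234 do not measure how firm the calls are. The nearest BEAF interval lay 8203 bp from any of the 10 genes, beyond the widest window of 2000 bp. Wider windows cannot remove a call, and shortened lists cannot add one. Genes called in bam GKD only numbered 1 with windows of 1000 bp and 2000 bp, against 0. The count in WT only stayed at 1, but the gene was hb in place of en in the 2 settings that keep wide intervals, whose lowest widths were 807 bp and 1184 bp in bam GKD and 722 bp and 521 bp in WT. The backgrounds among genes with no other protein-coding gene within 5 kb were 38.5%, 22.2% and 4.75%, against 61.4%, 55.7% and 28.1%, and those within the length range of the 10 genes were 65.0%, 63.1% and 34.0%. The median covered share fell within 10 kb, to 4.76% against 14.0% in bam GKD and to 1.47% against 4.51% in WT, as it did less steeply over all genes. Unknown depth limits every absence of an interval to these lists, and interval width is a weaker measure than a score.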
